A study of Homo sapiens with 6 samples.

Results

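DDIT3, ATF3, TRIB3, HYOU1, XBP1, PSAT1, PHGDH and VLDLR are 8 genes linked to the response of a cell to stress in the endoplasmic reticulum (ER) or to shortage of amino acids. They are 8 of the 14884 genes measured in U-2 OS cells carrying one of a pair of progerin forms, and they were selected on their difference between those forms. All 8 passed the adjusted p threshold of 0.05 in the comparison described here, 3 with higher and 5 with lower values in S22A-progerin cells, so their differences are given as descriptions with no test. The threshold was passed by 25.4% of all genes in either direction, by 10.8% on the higher side and by 14.6% on the lower side. Nothing can be read from the members' own count against those shares, since the members had been chosen by it.

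U-2 OS is a human osteosarcoma line, and progerin is the shortened, permanently farnesylated lamin A found in Hutchinson-Gilford progeria. One group of 3 samples came from cells infected with a retroviral vector for wt-progerin, which is progerin with no further change, and the other group of 3 from cells infected with the vector for S22A-progerin. S22A stands for alanine in place of serine at residue 22, a site that is phosphorylated when the lamina comes apart at mitosis, so the comparison asks what differs when that residue cannot be phosphorylated. In both groups the cells spent 3 days in puromycin at 5 µg/ml, and total RNA was taken 4 days after infection and measured on whole-transcript arrays. The promoter of the vector is not given in the sources used here. Samples of cells without progerin were not analysed here, so each value compares one progerin form with the other and none gives the effect of progerin itself. The labels call the samples of a group independent replicas of a single cell line, without saying that they were separate cultures, so the errors below measure only the spread between these arrays, which may be technical.

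Array medians lay between 6.04 and 6.09 on the log2 scale, and correlations over all probe sets were 0.989 to 0.993 within groups and 0.983 to 0.986 between groups. LMNA, the gene of lamin A and progerin, had values of 8.17, 8.15 and 8.10 with wt-progerin and 8.31, 8.26 and 8.29 with S22A-progerin. The difference of 0.15 ± 0.0508 (SE) did not pass in limma (adjusted p = 0.0796), and a probe set of the whole gene does not check the S22A change. Of 4 mesenchymal markers 3 were measured, of which FN1 fell by 0.42 (adjusted p = 0.000984), THY1 fell by 0.32 (0.00465) and VIM, at means of 10.89 and 10.83, did not pass. Their summed log2 values were 31.4 to 31.5 with wt-progerin and 30.6 to 30.7 with S22A-progerin. Of 5 epithelial markers 4 were measured, and KRT18 rose by 0.51 (adjusted p = 0.00061) while EPCAM, KRT8 and KRT19 did not pass, with sums of 32.2 to 32.9 and 32.7 to 32.9. Among 8 osteoblast lineage markers 4 were measured, of which SPP1 rose by 1.18 and RUNX2 fell by 0.74, with sums of 25.9 to 26.2 and 26.3 to 26.7. The 3 measured leukocyte markers and the 3 measured endothelial markers had group means of 4.70 to 6.88 and 5.23 to 5.63, and none of them was called. Their part in the results was not tested. In whole-culture RNA, fewer cells expressing a gene and less of its RNA per cell cannot be told apart.

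When unfolded proteins build up in the ER, sensors in its membrane start the unfolded protein response. PERK phosphorylates the initiation factor eIF2, which lowers protein synthesis overall while favouring translation of ATF4, and ATF4 switches on DDIT3 (CHOP), ATF3, TRIB3 and genes of amino acid supply, serine synthesis among them. Other kinases reach the same node from amino acid shortage or haem deficiency, so that the ATF4 branch is also called the integrated stress response. IRE1 instead splices XBP1 mRNA into the form that codes for an active factor, and ATF6 is cut free from the Golgi membrane, and both raise chaperones and folding enzymes of the ER such as HYOU1. In this textbook scheme PSAT1, PHGDH and VLDLR are counted with ATF4-dependent genes.

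The promoter letters of 4 members are shown here because the elements through which these branches are known to act were searched for in them. They are taken from RefSeq promoter windows of build GRCh38.p14, which run from 250 bases before to 50 bases after an annotated transcription start, and are given 5′ to 3′ on the strand of the gene, bases before the start only. HYOU1 (chr11:119057265-119057405, minus strand, 200 to 60 bases before the start) and XBP1 (chr22:28800589-28800689, minus strand, 120 to 20 bases before the more upstream of 2 starts) show the elements named for ER stress. DDIT3 (chr12:57520557-57520657, minus strand, 140 to 40 bases before the more upstream of 2 starts) and ATF3 (chr1:212565192-212565252, plus strand, 215 to 155 bases before the more upstream of 2 starts) show what the same search found for the members with higher values. Capitals mark TGACGTGG and both copies of the ER stress response element II in HYOU1, the whole ER stress response element in XBP1, CCAAT in either orientation in DDIT3, and TGATGNAA in ATF3.
HYOU1: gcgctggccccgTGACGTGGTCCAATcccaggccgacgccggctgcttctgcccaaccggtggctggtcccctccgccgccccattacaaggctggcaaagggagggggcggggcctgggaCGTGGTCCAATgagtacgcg
XBP1: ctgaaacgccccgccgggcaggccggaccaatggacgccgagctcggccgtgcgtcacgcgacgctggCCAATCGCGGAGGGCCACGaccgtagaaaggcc
DDIT3: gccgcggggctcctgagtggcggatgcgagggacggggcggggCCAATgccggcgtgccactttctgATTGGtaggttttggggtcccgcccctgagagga
ATF3: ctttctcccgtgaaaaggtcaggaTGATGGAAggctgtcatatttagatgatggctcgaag

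All 8 members had at least 1 window in the table, 13 in all, among 35116 windows of all genes, and each motif was searched on both strands. The ER stress response element, CCAAT and CCACG held 9 bases apart, was in 0.0769% of all windows (27 windows) and among the members in XBP1, where it began 52 bases before the start. Only exact matches were counted, so copies with 1 base changed were missed. In the DDIT3 letters above, the first CCAAT is followed after 9 bases by CCACT. The CCAAT on the reverse strand is followed after 9 bases by GCACG. Each differs from CCACG by 1 base, so the search does not show that DDIT3 lacks the element. The ER stress response element II, in which ATTGG, the reverse complement of CCAAT, lies 1 base from CCACG, was in 0.0541% (19 windows) and began 185 and 79 bases before the start of HYOU1, on the reverse strand in both places. TGACGTGG, the core bound by XBP1 and ATF6, was in 0.729% of windows and in HYOU1, 188 bases before its start, where it overlaps one copy of the element II. TGATGNAA, the core of the composite site shared by C/EBP and ATF proteins, was in 3.62% of windows and in ATF3, 191 bases before its start. TGACGTCA, the cyclic AMP response element, was in 1.85% of windows and in no window of the members, which says only that these letters are not in those windows. The short parts were common: CCACG stood in 38.1% of windows and in TRIB3, HYOU1, XBP1 and VLDLR, and CCAAT stood in 34.6% of windows and in DDIT3, ATF3, HYOU1, XBP1, PSAT1 and PHGDH. The element II and CCAAT alone were searched after the windows had been seen. GC content of the members' windows ran from 46.3% for one ATF3 window to 79% for VLDLR, against a median of 58.7% over all windows.

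**Figure D1:**
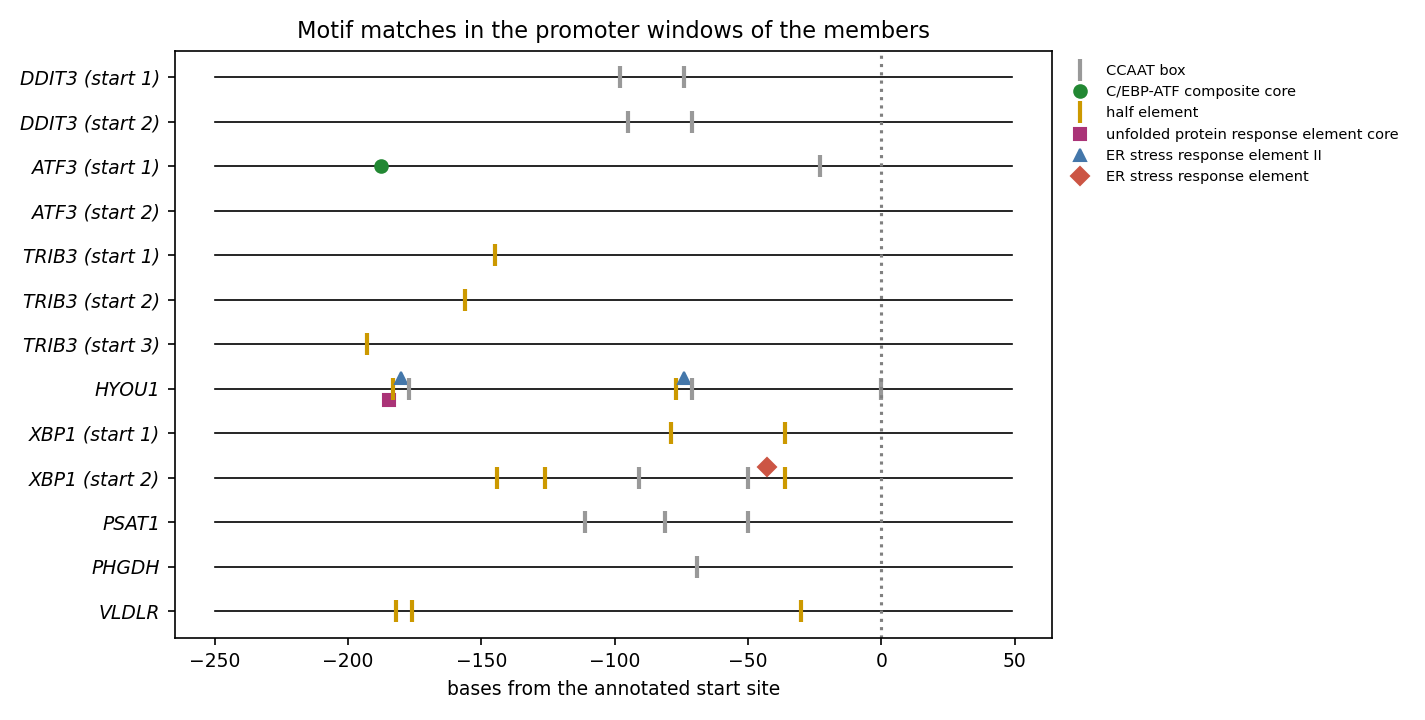
Positions of the searched motifs in the promoter windows of the 8 members, in bases from the annotated start (250 before to 50 after); each line is one window and each mark one match on either strand, and where a gene has several starts they are numbered by coordinate. The whole ER stress response element appears on one XBP1 window, the element II at 2 places on HYOU1 and TGATGNAA once on ATF3, while CCAAT (grey) and CCACG (gold) are spread over most genes.

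The transcription factors DDIT3 and ATF3 and the pseudokinase TRIB3 were higher with S22A-progerin, and the chaperone HYOU1, the factor XBP1, the serine enzymes PSAT1 and PHGDH and the receptor VLDLR were lower. For each of the 8 the groups of 3 arrays did not overlap, which was the case for 42.1% of all genes. The 3 higher members differed by 0.57 to 1.44 on the log2 scale and the 5 lower members by 0.18 to 0.32 in size. The median difference was -0.00367 over all genes and -0.0463 over the brighter 50% of them.

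**Figure D2:**
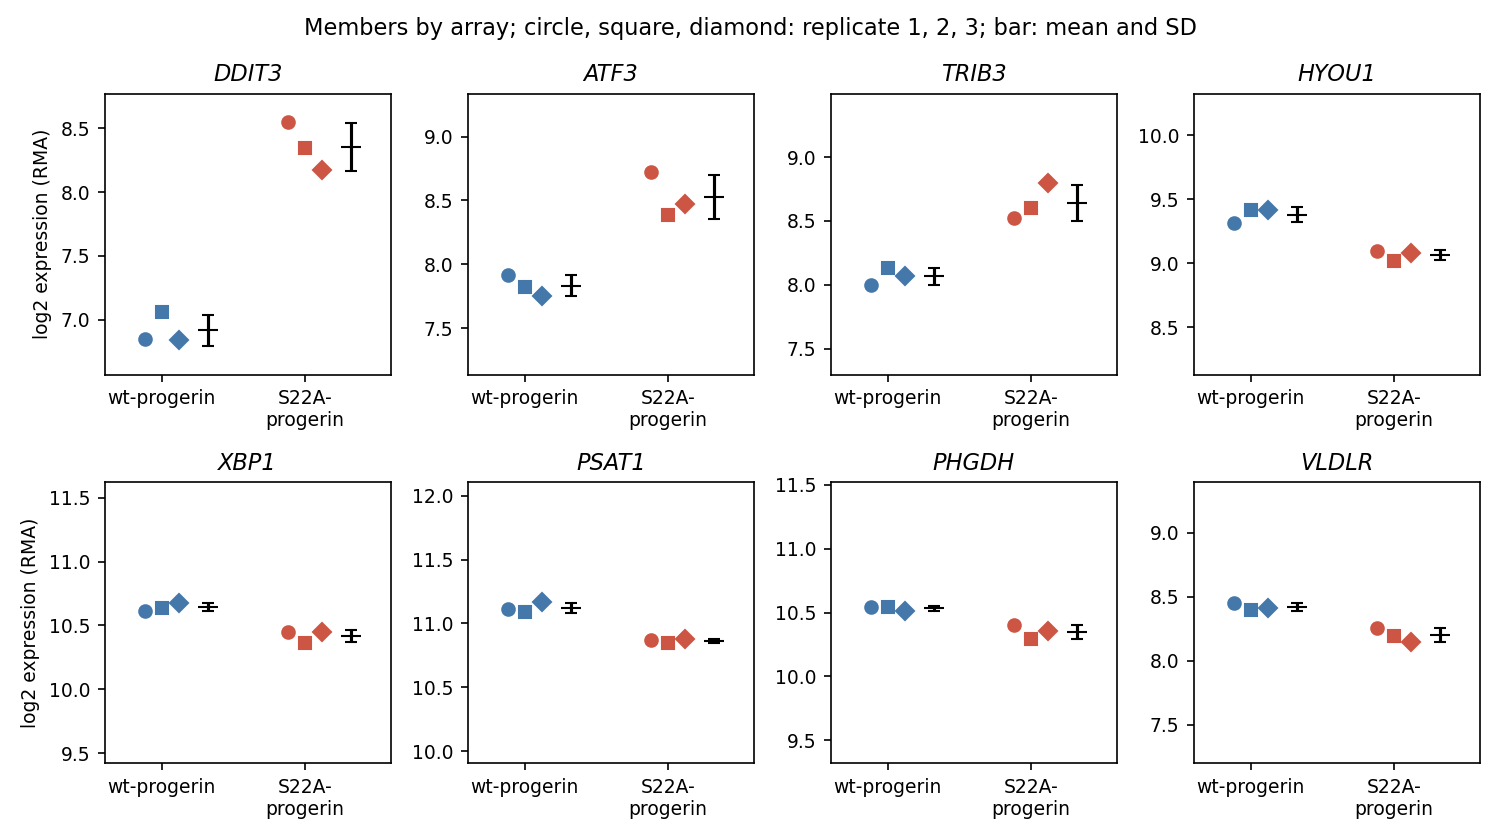
Deposited log2 expression of each member on the 3 wt-progerin and 3 S22A-progerin arrays; points are arrays, bars are group means with the SD, and every panel spans the same number of log2 units, so that distances compare between panels but levels of different genes do not. The DDIT3 groups are farthest apart (6.84 to 7.06 against 8.17 to 8.55), and in the PHGDH panel the groups are separated by 0.11.

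DDIT3 codes for CHOP, a C/EBP-family factor that carries the pro-apoptotic output of prolonged ER stress. Its log2 values were 6.85, 7.06 and 6.84 with wt-progerin and 8.55, 8.34 and 8.17 with S22A-progerin. All 3 S22A-progerin arrays stood above all 3 wt-progerin arrays, with 1.11 between the nearest arrays of the groups. The means of 6.92 ± 0.121 and 8.35 ± 0.187 (SD, n = 3) differed by 1.44 ± 0.107 (SE, 95% interval 1.18 to 1.69), a 2.70-fold higher signal. Counting DDIT3 itself, 68 genes had a difference at least as high.

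ATF3 is a stress-induced factor of the ATF/CREB family that acts downstream of ATF4 and also answers many other stresses. It measured 7.92, 7.83 and 7.76 with wt-progerin and 8.72, 8.39 and 8.48 with S22A-progerin. The groups were 0.47 apart at their nearest arrays, and the S22A-progerin array highest for DDIT3, replicate 1, was also the highest for ATF3. Means of 7.83 ± 0.0817 and 8.53 ± 0.173 (SD, n = 3) gave a difference of 0.70 ± 0.0954 (SE, 95% interval 0.47 to 0.92), or 1.62-fold. A difference at least this high was found in 319 genes.

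TRIB3, a pseudokinase induced by ATF4 and CHOP that binds AKT and feeds back on ATF4, measured 7.9997, 8.13 and 8.07 with wt-progerin and 8.52, 8.61 and 8.80 with S22A-progerin. Here replicate 3 of S22A-progerin was the highest and replicate 1 the lowest of its group, the reverse of their order for DDIT3, and the groups stayed 0.39 apart. The difference of the means, 8.07 ± 0.0663 and 8.64 ± 0.140 (SD, n = 3), was 0.57 ± 0.0821 (SE, 95% interval 0.38 to 0.77), or 1.49-fold, and 435 genes had one at least as high.

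ATF4, the factor upstream of these genes, measured 10.32, 10.25 and 10.28 with wt-progerin and 10.21, 10.28 and 10.15 with S22A-progerin, and the groups overlapped. Its difference of -0.07 did not pass in limma (adjusted p = 0.422), though ATF4 is controlled largely at translation, which an RNA array does not measure. Of 20 genes of PERK and eIF2 signalling 8 were measured, and 3 of them fell and 0 rose (0 rose at an unadjusted p under 0.05 as well), with a median difference of -0.18. EIF2AK1, the eIF2 kinase of haem deficiency and mitochondrial stress, fell by 0.31 ± 0.0577 (SE, adjusted p = 0.00768). NCK1, an adaptor that helps dephosphorylate eIF2, fell by 0.34 (adjusted p = 0.0449), and QRICH1, a factor acting with ATF4 in ER stress, fell by 0.19 (adjusted p = 0.0416). QRICH1 missed the threshold when any 1 of the 6 arrays was left out (adjusted p = 0.0588 to 0.136), and NCK1 when any array other than S22A-progerin replicate 3 was left out (0.0749 to 0.125). With wt-progerin replicate 1, 2 or 3 or S22A-progerin replicate 2 left out, EIF2AK1 was the 1 gene of the list still called. EIF2AK3, which codes for PERK itself, differed by -0.18 (adjusted p = 0.0627), and ATF5, a relative of ATF4 under the same translational control, by -0.21 (adjusted p = 0.0745), and neither passed.

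Of 24 other genes listed as targets of ATF4 or CHOP 19 were measured, of which 8 rose, 2 fell and 9 did not pass. That is 42.1% higher and 10.5% lower, against 10.8% and 14.6% of all genes. These shares are descriptions, since the list was chosen with earlier results of these data known. The median difference was 0.18, and not every listed gene is one that these factors switch on. GDF15, a stress-secreted hormone, measured 8.04, 8.06 and 7.98 with wt-progerin and 11.64, 11.56 and 11.55 with S22A-progerin, a rise of 3.55 ± 0.0558 (SE, adjusted p = 6.82e-07). TXNIP, an inhibitor of thioredoxin and of glucose uptake, rose by 1.93 (adjusted p = 1.88e-05) and KLHL24, a ubiquitin ligase adaptor, by 1.30 (6.09e-05). PMAIP1 (NOXA) and BBC3 (PUMA), which promote apoptosis at the mitochondrion, rose by 0.85 and 0.60. SESN2, a leucine sensor that restrains mTORC1, rose by 0.79, and the autophagy genes SQSTM1 and MAP1LC3B by 0.61 and 0.47. GDF15, SESN2, PMAIP1, BBC3 and DDIT4 are also known targets of p53. With those 5 left out, a choice made after their values were seen, 14 genes remained, of which 4 rose and 2 fell, with a median of 0.01. Over all genes 10.8% were called higher and 14.6% lower, and a part of p53 in these values was not tested.

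The 2 genes of that list that fell were FGF21, a stress hormone under ATF4 (-0.52 ± 0.0723, adjusted p = 0.00223), and ATG5, a core autophagy gene (-0.26, adjusted p = 0.0163). ATG5 missed the threshold without wt-progerin replicate 1, wt-progerin replicate 3 or S22A-progerin replicate 1 (adjusted p = 0.0514 to 0.0638). FGF21 stood at 7.63, 7.64 and 7.73 with wt-progerin and at 7.09, 7.06 and 7.27 with S22A-progerin. ERO1B, an ER oxidase, and DDIT4, an mTORC1 inhibitor, differed by 0.24 and 0.18 and did not pass (adjusted p = 0.0534 and 0.0575). CHAC1, PPP1R15A and TNFRSF10B, further known genes of the CHOP branch, were not analysed here.

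HYOU1 is a large chaperone of the ER lumen that acts as a nucleotide exchange factor for BiP, and its promoter letters above hold the element II in 2 copies. Its brighter probe set measured 9.31, 9.41 and 9.42 with wt-progerin and 9.10, 9.02 and 9.08 with S22A-progerin. The groups were 0.22 apart. Their means were 9.38 ± 0.0591 and 9.06 ± 0.0421 (SD, n = 3), a difference of -0.32 ± 0.0568 (SE, 95% interval -0.45 to -0.18), or 1.25-fold lower. The second probe set of HYOU1 was dim, at 6.17, 6.20 and 6.06 with wt-progerin and 6.05, 5.87 and 5.97 with S22A-progerin, and it too showed no overlap, by a margin of under 0.01. A difference at least as low as that of the brighter probe set was found in 1550 genes.

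XBP1 codes for the factor that IRE1 activates by splicing, and the array reads its mRNA in total, not its splicing. It measured 10.61, 10.64 and 10.68 with wt-progerin and 10.45, 10.37 and 10.45 with S22A-progerin. The nearest arrays of the groups were 0.17 apart, and S22A-progerin replicate 2 was the lowest for XBP1 as it was for HYOU1. The group means, 10.64 ± 0.0333 and 10.42 ± 0.0460 (SD, n = 3), differed by -0.22 ± 0.0533 (SE, 95% interval -0.35 to -0.10), 1.17-fold lower, and 2497 genes had a difference at least as low.

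ERN1, which codes for IRE1, the enzyme that splices XBP1, moved opposite to XBP1. It measured 7.05, 7.09 and 6.99 with wt-progerin and 7.49, 7.45 and 7.49 with S22A-progerin, a rise of 0.43 ± 0.0532 (SE, adjusted p = 0.00136). Of 24 genes of the IRE1 and XBP1 branch with ER import and transport 14 were measured, ERN1 was the 1 gene called higher, and 0 were called lower (2 at an unadjusted p under 0.05 in limma). Their median difference was -0.01. KDELR3, a receptor that returns ER proteins from the Golgi, lay just outside the threshold at -0.16 (10.49, 10.48 and 10.42 against 10.32, 10.29 and 10.29; adjusted p = 0.0501). ERO1B, named above, was the next gene of the lists outside it, and PHGDH was the member nearest to it on the inside. The translocon subunit SEC61B differed by -0.01 (adjusted p = 0.905), and DNAJB9, a known target of spliced XBP1, was not analysed here.

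In the ATF6 branch with the folding machinery of the ER, 14 of 28 genes were measured, of which 4 fell and 0 rose (1 at an unadjusted p under 0.05), with a median of -0.11. CREB3L1 (OASIS), a membrane-bound factor of the ATF6 kind known from bone-forming cells, measured 8.12, 8.13 and 8.18 with wt-progerin and 7.05, 6.90 and 7.13 with S22A-progerin. It fell by 1.12 ± 0.0716 (SE, adjusted p = 9.18e-05), more than any other measured gene of the 11 lists. Its relative CREB3L2 fell by 0.44 (adjusted p = 0.00239), and UGGT1, which tests the folding of glycoproteins, by 0.32 (0.00967). ATF6 itself fell by 0.19 (adjusted p = 0.0345), a call missed when any array other than S22A-progerin replicate 1 was left out (0.0659 to 0.107). CALR and CANX, the lectin chaperones of the ER, differed by -0.10 and -0.08 and did not pass, and HSPA5 (BiP), HSP90B1 and PDIA6 were not analysed here. Among 11 measured of 20 genes of ER-associated degradation, which returns misfolded proteins to the cytosol, 0 were called in either direction in limma (1 lower and 0 higher at an unadjusted p under 0.05). NPLOC4 and VCP, which pull those proteins from the membrane, were the nearest at -0.13 and -0.11 (adjusted p = 0.101 and 0.180). HERPUD1, SYVN1 and EDEM1 of that list were not analysed here, so the 0 calls cover only the 11 measured genes.

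Counting genes by promoter letters, 44 had an exact match to either ER stress response element in a window. Of these 26 were measured, HYOU1 and XBP1 included. Of the other 24, 0 rose (1 at an unadjusted p under 0.05 in limma) and 4 fell (7 at that p), which is 16.7% against the 14.6% of all genes called lower. The 4 were SHCBP1 (-0.70), SYNPO (-0.66), NUCB1 (-0.37) and GYS1 (-0.37), named after their values were seen. NUCB1 is a calcium-binding protein of the Golgi that restrains ATF6 processing, SYNPO an actin-binding protein and GYS1 glycogen synthase. The median of the 24 was -0.06, against -0.00367 over all genes and -0.0463 over the brighter 50% of them. Well-known ER stress genes among them did not pass: CRELD2 differed by -0.14, SDF2L1 by 0.09 and SERP1 by 0.08.

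PHGDH and PSAT1 carry out the first and the following step of serine synthesis from the glycolytic intermediate 3-phosphoglycerate, and PSPH the last. PSAT1 measured 11.11, 11.09 and 11.17 with wt-progerin and 10.87, 10.85 and 10.88 with S22A-progerin. The S22A-progerin arrays lay within 0.03 of each other and 0.21 below the lowest wt-progerin array. The means of 11.12 ± 0.0404 and 10.86 ± 0.0154 (SD, n = 3) differed by -0.26 ± 0.0508 (SE, 95% interval -0.38 to -0.14), 1.20-fold lower. PHGDH measured 10.54, 10.55 and 10.51 against 10.40, 10.29 and 10.35, with 0.11 between the groups. Its means of 10.53 ± 0.0178 and 10.35 ± 0.0536 (SD, n = 3) differed by -0.18 ± 0.0532 (SE, 95% interval -0.31 to -0.06), 1.14-fold lower, the smallest difference of the 8. At least as low were 2068 genes for PSAT1 and 3038 for PHGDH.

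PSPH, the last enzyme of the route, measured 9.77, 9.79 and 9.83 with wt-progerin and 9.80, 9.78 and 9.63 with S22A-progerin, and the groups overlapped (difference -0.06, 95% interval -0.21 to 0.09, adjusted p = 0.529). Whether PSPH differed from PHGDH or PSAT1 in its response was not tested. Of 23 enzymes that pass serine, glycine and folate one-carbon units on, PSPH included, 13 were measured, of which 4 fell and 0 rose (1 at an unadjusted p under 0.05), with a median of -0.05. SHMT1, the cytosolic enzyme that splits serine to glycine, fell by 0.60 ± 0.0575 (SE, adjusted p = 0.00043), whereas its mitochondrial counterpart SHMT2 differed by 0.04 (0.725). The difference between SHMT1 and SHMT2 was not tested. MTR, methionine synthase, fell by 0.41 (adjusted p = 0.00315) and TYMS, which makes thymidylate for DNA synthesis, by 0.25 (0.0122). GCSH of the glycine cleavage system fell by 0.40 (adjusted p = 0.0453). TYMS missed the threshold without wt-progerin replicate 3 (0.0555), and GCSH without wt-progerin replicate 2 or any 1 of the S22A-progerin arrays (0.0651 to 0.116). MTHFD2 was not analysed here.

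Genes of amino acid supply beyond serine were thinly covered. Of 22 genes of uptake and synthesis 5 were measured, with a median difference of -0.19. CTH, which makes cysteine from cystathionine, fell by 0.30 ± 0.0549 (SE, adjusted p = 0.00709), and 0 rose (0 at an unadjusted p under 0.05 in limma). ASNS, asparagine synthetase and a standard reporter of ATF4, measured 8.91, 9.05 and 8.92 with wt-progerin and 8.80, 8.73 and 8.77 with S22A-progerin, a difference of -0.19 that did not pass (adjusted p = 0.0556). CBS and PYCR1 differed by -0.17 and -0.10 and did not pass either.

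Cytosolic aminoacyl-tRNA synthetases, many of them ATF4 targets, load amino acids on tRNA. Of 20 such genes 17 were measured, of which 4 fell, 1 rose and 12 did not pass. That is 23.5% lower and 5.88% higher, against 14.6% and 10.8% of all genes. Their median difference was -0.09, and over the brighter 50% of all genes, where all 17 lie, it was -0.0463. LARS1, MARS1, IARS1 and CARS1 fell by 0.29, 0.24, 0.23 and 0.21 (adjusted p = 0.00654, 0.0117, 0.0207 and 0.0361). WARS1, which is also induced by interferon, rose by 0.20 (adjusted p = 0.0380). LARS1 passed with each array left out. MARS1 missed the threshold without wt-progerin replicate 1 (0.0509), IARS1 without wt-progerin replicate 1 or 3 or S22A-progerin replicate 1 (0.0502 to 0.0834), CARS1 without any array other than S22A-progerin replicate 1 (0.0532 to 0.106), and WARS1 without any array other than S22A-progerin replicate 3 (0.0581 to 0.133). WARS1 also missed it when arrays were centred on their medians (0.094).

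VLDLR is a receptor of the lipoprotein receptor family that takes up lipoproteins and, with LRP8, transmits reelin signals. It measured 8.45, 8.40 and 8.41 with wt-progerin and 8.26, 8.19 and 8.15 with S22A-progerin. The groups were 0.14 apart, and replicate 3 was the lowest S22A-progerin array here, not replicate 2 as for the other 4 lower members. Means of 8.42 ± 0.0290 and 8.20 ± 0.0543 (SD, n = 3) gave a difference of -0.22 ± 0.0543 (SE, 95% interval -0.35 to -0.09), 1.17-fold lower, and 2516 genes had one at least as low.

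VLDLR's relatives and partners moved in both directions. Of 20 genes of the lipoprotein receptor family and reelin signalling 14 were measured, of which 4 rose, 2 fell and 8 did not pass, with a median of 0.04. RELN, the ligand of VLDLR, measured 5.87, 5.69 and 5.91 with wt-progerin and 6.51, 6.46 and 6.67 with S22A-progerin, a rise of 0.72 ± 0.0833 (SE, adjusted p = 0.0010). MYLIP, the ubiquitin ligase that sends VLDLR to degradation, rose by 0.45 (adjusted p = 0.00452). The receptors LRP10 and LRP11 rose by 0.42 and 0.33. LRP1, a large endocytic receptor, fell by 0.61 (adjusted p = 0.0011), and LRP6, a Wnt co-receptor, by 0.32 (0.00681). These 6 genes passed with each array left out.

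A further list, named for dimer partners, held factors of the ATF, CREB and C/EBP families and their relatives, of which 8 of 18 were measured. Whether they pair with CHOP or ATF3 was not tested. Of these 3 fell and 0 rose (0 at an unadjusted p under 0.05 in limma), and the median was -0.15. DBP and TEF, clock-controlled factors of the PAR family, fell by 0.77 ± 0.0643 (SE, adjusted p = 0.000257) and 0.54 (0.000713), and CREB1, the factor of the cyclic AMP response, fell by 0.43 (0.00248). JDP2, a close relative of ATF3, differed by -0.17 and did not pass (adjusted p = 0.153). In the list of Tribbles genes, AKT and COP1, 6 of 8 genes were measured, of which 1 rose and 1 fell. TRIB1, a relative of TRIB3 that brings C/EBP proteins to the ubiquitin ligase COP1, measured 8.64, 8.71 and 8.74 with wt-progerin and 9.42, 9.37 and 9.42 with S22A-progerin, a rise of 0.71 ± 0.0537 (SE, adjusted p = 0.000171). TRIB2 differed by -0.11 (adjusted p = 0.354). AKT2, one of the kinases that TRIB3 binds, fell by 0.20 (adjusted p = 0.0256), a call missed when any array other than S22A-progerin replicate 2 was left out (0.0502 to 0.0924).

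Over the 11 lists together, with the 8 members left out, 129 of 227 genes were measured. Of these 15 rose (11.6%, against 10.8% of all genes), 24 fell (18.6%, against 14.6%) and 90 did not pass, with a median difference of -0.06. Of the 39 called genes 28 passed with each array left out, and the 11 that did not are named above. The lists were chosen with earlier results of these data known, and their shares are descriptions.

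**Figure D3:**
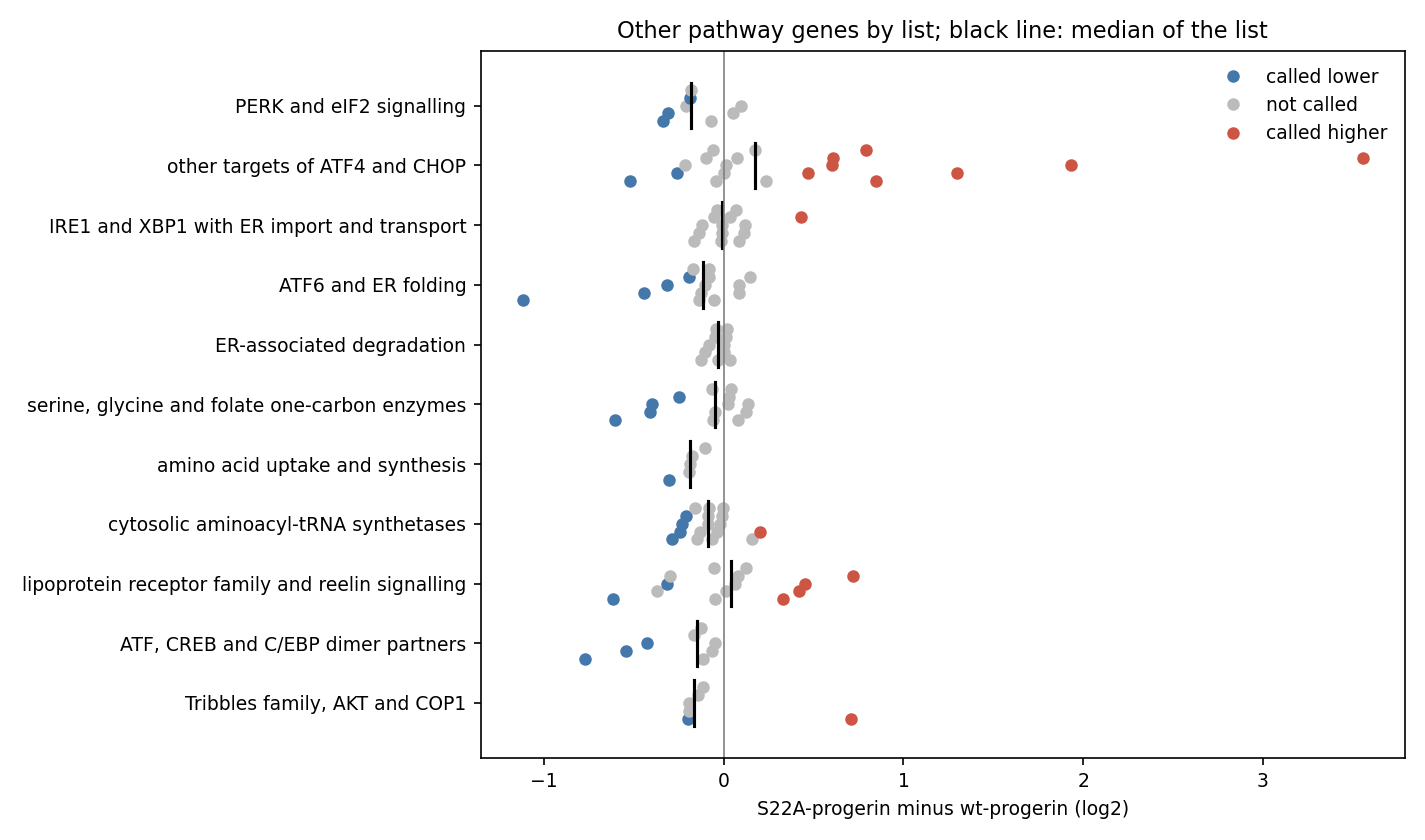
Log2 differences (S22A-progerin minus wt-progerin) of the measured genes of each of the 11 lists, with the 8 members left out; each point is a gene, coloured by whether it was called higher, called lower or not called in limma, and the bar is the list's median. In the list of ATF4 and CHOP targets 8 of 19 are called higher (4 of 14 without the p53 targets), with GDF15 farthest out at 3.55. The lists of PERK and eIF2, ATF6 and folding, one-carbon enzymes, amino acid supply and dimer partners hold called genes on the lower side only. They have 5 to 14 measured genes each, and over all genes 10.8% were called higher and 14.6% lower. In lists this small, 0 higher calls are not read as a result.

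Among the members, the arrays did not keep one order. With each gene centred on its mean over the 6 arrays, the 3 higher members averaged -0.47, -0.38 and -0.50 on wt-progerin replicates 1 to 3 and 0.54, 0.39 and 0.42 on S22A-progerin replicates 1 to 3. The 5 lower members averaged 0.11, 0.12 and 0.14 and then -0.09, -0.16 and -0.12. The S22A-progerin array with the highest mean of the higher members, replicate 1, was thus the one with the mean of the lower members nearest to 0. With 3 arrays in a group this order was not tested.

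For each member the 3 genes with the most similar values were found by the root mean square distance between centred log2 values over the 6 arrays. Symbols starting with LOC, LINC, MIR, SNOR or RNU, open reading frame symbols and pseudogenes were left out of this search. Nearest to DDIT3 were PIK3IP1 (0.0758), PTGS2 (0.0853) and EBI3 (0.0939), nearest to ATF3 were ALLC (0.0606), NMNAT2 (0.0613) and CD274 (0.0687), and nearest to TRIB3 were HRH1 (0.0357), ZFP92 (0.0430) and ZBTB38 (0.0478). For HYOU1 they were PFDN1 (0.0164), KATNIP (0.0196) and MYADM (0.0204), and for XBP1 NSFL1C (0.0082), KCTD9 (0.0097) and ZNF544 (0.0145). PSAT1 lay nearest to LARS1 (0.0144), HNRNPH3 (0.0152) and PRR14L (0.0172), the first being the leucyl-tRNA synthetase described above. PHGDH lay nearest to CDC37L1 (0.0089), AEBP1 (0.0125) and RCC1L (0.0147), and VLDLR to DDX47 (0.0100), HDAC5 (0.0142) and CDC5L (0.0157). None of the 8 had another member among its nearest 3. The distances are in log2 units and were smaller for the 5 lower members, whose differences between groups were also smaller.

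The 8 members did not depend alike on the processing, and none of them changed sign in the 13 alternatives. DDIT3, ATF3, TRIB3, HYOU1 and PSAT1 met the threshold in all 13, with differences of 1.34 to 1.53, 0.60 to 0.77, 0.50 to 0.63, -0.35 to -0.25 and -0.29 to -0.23. XBP1 (-0.26 to -0.18) and VLDLR (-0.26 to -0.20) met it in 8 and PHGDH (-0.22 to -0.15) in 5. Without wt-progerin replicate 1, 2 or 3 or S22A-progerin replicate 2, XBP1, PHGDH and VLDLR missed it, and without S22A-progerin replicate 1 or 3 PHGDH did. The largest adjusted p of any alternative was 0.0849 for XBP1, 0.124 for PHGDH and 0.0871 for VLDLR in limma. The members had been chosen by their calls on these same arrays. Meeting the threshold again therefore describes the dependence on settings and is no test of the differences.

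**Figure D4:**
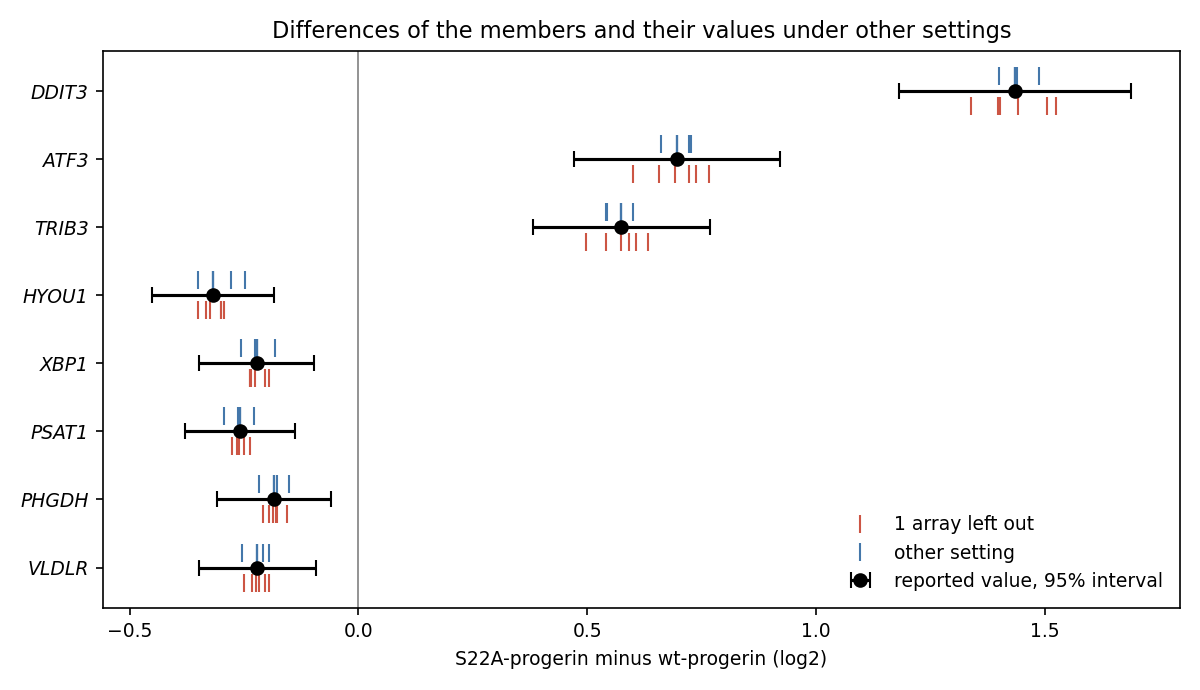
Log2 differences (S22A-progerin minus wt-progerin) of the 8 members, with the reported value and its 95% interval and the values under the 13 alternatives; a value at 0 would mean equal group means. DDIT3, ATF3 and TRIB3 lie to the right of 0 in each alternative and the 5 others to the left, with PHGDH nearest to 0 at -0.18.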

How the data were processed

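The deposited values are log2 expression from 6 arrays. Per the submitters' processing notes, the authors used Affymetrix Expression Console and its RMA method, in which background correction and quantile normalization of the arrays come before the probes of a set are summarised. The sources used here give no settings or versions of that step. Deposited values ran from 1.27 to 14.05. No detection calls, which could separate low expression from none, were used here, and the number of arrays limits precision.

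Of 53617 probe sets, 16098 had 1 gene symbol in the platform annotation, 0 several and 37519 none. All 16098 matched RefSeq genes (GRCh38.p14) by Entrez identifier. Of 14884 genes, 779 had several probe sets, and the one with the highest mean was used. The fit was limma 3.58.1 (R 4.3.3), lmFit and eBayes, 2 groups, no covariate, two-sided, Benjamini-Hochberg over all genes, called at 0.05 with no filter. Groups and array columns came from the labels.

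The 8 members and the 11 lists were chosen with earlier results of these data known. Named genes are the members, LMNA, up to 4 genes of each list with the smallest p, those needed to state small counts, and the 3 nearest patterns of each member. Other list genes were named after their values were seen. On simulated arrays of 14884 genes with the means and spreads of these data, 8 of 50 genes changed by 0.3 were recovered. At 0.6 it was 36 of 50, at 1 48 of 50 and at 2 50 of 50, with 11 of 153 calls false. The data gave 3777 calls. With far fewer changed genes the adjusted threshold was stricter in the simulation, so these recoveries do not give those of the data. Alternatives were a repeated quantile normalization, median centring, leaving out the dimmer 50% of genes, averaging probe sets, a trended and robust variance prior, array weights, the replicate number as a block, and each array left out. Orientation of the promoter table was checked on overlapping windows.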

Additional observations from a re-analysis of the deposited data

How the results depend on the processing

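Counts over all genes stayed within 1.5 times (higher 1127 to 1844, lower 1512 to 2645), and so did the higher genes of the 11 lists (14 to 21). Counts of single lists moved as follows, each list named by its first word or gene. With the trended and robust prior, 39 list genes were lower, and by list 5 PERK, 2 IRE1, 2 degradation, 2 amino acid, 7 synthetase, 4 lipoprotein receptor and 2 Tribbles genes were lower, and 2 IRE1, 2 ATF6 and 2 synthetase genes higher. Without the dimmer 50% of genes, 5 PERK, 2 IRE1, 1 degradation, 2 amino acid, 7 synthetase and 2 Tribbles genes were lower, and 1 ATF6, 1 one-carbon, 2 synthetase and 2 lipoprotein receptor genes higher. With arrays centred, 1 IRE1, 2 amino acid, 4 lipoprotein receptor and 2 Tribbles genes were lower and 0 synthetase genes higher. With probe sets averaged, 2 IRE1 and 2 Tribbles genes were lower and 0 synthetase genes higher. Repeated quantile normalization gave 1 ATF6 gene higher and 2 Tribbles genes lower. Leaving out the p53 targets, an alternative chosen after seeing the data, gave 4 ATF4 and CHOP targets higher. With each array left out, lower genes ranged from 1 to 2 (PERK), 1 to 3 (ATF4 and CHOP targets), 1 to 3 (synthetases) and 0 to 1 (Tribbles), and higher synthetases from 0 to 1. HYOU1 moved to -0.25 with probe sets averaged, XBP1 to -0.18 with repeated quantile normalization and PSAT1 to -0.29 with centring, by more than 1 SD between replicates. PHGDH missed the threshold with repeated quantile normalization (adjusted p = 0.0683). The cause of these moves was not tested. Leaving out the dimmer genes changes how many genes are tested, and leaving out an array leaves fewer arrays in its group.

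Same-numbered arrays did not deviate together (correlations of -0.0195, -0.0549 and -0.00558), so the numbers were not taken to pair the arrays. With the replicate number as a block, 1285 genes were higher and 1705 lower, 5 of the 8 members met the threshold (not XBP1, PHGDH and VLDLR, adjusted p = 0.0663, 0.113 and 0.0643), and lower genes were 1 (PERK), 1 (ATF4 and CHOP targets), 2 (synthetases) and 0 (Tribbles), with 0 synthetases higher.

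Signal limits the dim genes, such as GCSH and RELN, for which folds from RMA values are compressed. Over the 53 named list genes no difference changed sign.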
